A study of Mus musculus with 24 samples.

Results

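The mitochondrially encoded genes are the genes carried by the DNA of the mitochondrion itself, and they were taken as every gene of the count table whose symbol begins with mt- in lower case. The rule found 37 of 48526 genes: 13 protein-coding genes, 2 ribosomal RNA genes and 22 transfer RNA genes. They were measured by RNA sequencing in 24 samples of renal cortex from C57BL/6 mice, in 4 groups of 6. Diabetes was induced from 6 weeks of age with 5 daily doses of 55 mg/kg streptozotocin, a toxin of the insulin-producing beta cells, and non-diabetic mice received sodium citrate instead. Mice of each kind then drank water with PMX-53, a peptide inhibitor of the complement receptor C5aR1, at 2 mg/kg, or water alone (called vehicle here), over 24 weeks. The groups were thus diabetic mice on PMX-53, diabetic mice on vehicle, non-diabetic mice on PMX-53 and non-diabetic mice on vehicle. Each library was made from 200 ng of total RNA after depletion of ribosomal RNA, with a directional kit. The design asks what diabetes does, what the inhibitor does in diabetic and in non-diabetic mice, and whether these effects depend on each other.

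Mitochondrial DNA is transcribed from both strands into long RNAs that span most of its length. Transfer RNAs lie between many of the other genes, and they are cut out of the long RNAs, which frees the ribosomal and messenger RNAs on either side. The messenger RNAs encode subunits of complexes I, III and IV of the respiratory chain and of ATP synthase, and the ribosomal and transfer RNAs serve the mitochondrion's own translation. Tubule cells of the renal cortex, those of the proximal tubule above all, are rich in mitochondria.

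Of the 13 protein-coding genes, 7 were measured at depth and 6 were almost absent from the counts. The 7 were mt-Nd1, mt-Nd2, mt-Nd4, mt-Nd5 and mt-Nd6, subunits of complex I, with mt-Cytb of complex III and mt-Co1 of complex IV, and each held 4592 to 319606 counts in every library. The other 6 were mt-Co2 and mt-Co3 of complex IV, mt-Atp6 and mt-Atp8 of ATP synthase, and mt-Nd3 and mt-Nd4l of complex I. Over all 24 libraries together mt-Atp6 held 11 counts, mt-Nd3 held 8, mt-Co2 held 4, mt-Co3 and mt-Atp8 held 2 each, and mt-Nd4l held 1, with at most 2 counts of a gene in any library. These 6 genes adjoin each other on mitochondrial DNA, from position 7013 to 10173 of GRCm38, between mt-Co1 and mt-Nd4.

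All but mt-Atp8 of the 6 genes with almost no counts have a near-identical annotated copy in the nuclear genome. On the minus strand of chromosome 1, from 24611535 to 24616197 (GRCm38, GENCODE M21), 7 unprocessed pseudogenes lie in the order of the mitochondrial genes. Over the length each pseudogene covers, 681 of 681 bases of mt-Co2, 678 of 678 of mt-Atp6, 783 of 783 of mt-Co3, 294 of 294 of mt-Nd4l and 344 of 345 of mt-Nd3 were identical. Of 6 distances between neighbours in the block, 5 equalled those on mitochondrial DNA, and the distance from mt-Nd3 to mt-Nd4l was 73 bases there and 74 in the block. The 7 pseudogenes together held 336 counts in all 24 libraries, with at most 10 counts of a gene in a library. How reads that fit 2 places were counted is not given in the sources used here, and its part in the low counts was not tested.

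The 62 bases that open mt-Nd3 (chromosome MT, 9459 to 9806, plus strand) and its copy Gm28438 (chromosome 1, 24612775 to 24613119, minus strand) are shown because they hold the only base that differs. It is T3C, counted from 1 at the 5′ end, with the mitochondrial base first, and it is in capitals. Sequences are those of the GENCODE M21 transcripts, 5′ to 3′.
mt-Nd3: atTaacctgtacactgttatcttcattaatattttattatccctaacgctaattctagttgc
Gm28438: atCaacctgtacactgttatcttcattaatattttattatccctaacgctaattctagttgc

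The match ends inside mt-Nd4 (10167 to 11544, plus strand), where Gm28439 covers 876 bases, all identical. Bases 817 to 936 of mt-Nd4 are shown because they cross that end, and capitals mark the bases past it.
mt-Nd4: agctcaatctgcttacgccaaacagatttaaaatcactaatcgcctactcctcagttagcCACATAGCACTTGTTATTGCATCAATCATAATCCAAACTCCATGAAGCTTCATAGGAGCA

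The share of a gene's 50-base windows that also occur in a nuclear transcript was high for 5 of the 6. It was 100% for mt-Co2, 99.9% for mt-Co3, 99.5% for mt-Atp6, 98.8% for mt-Nd4l and 98.0% for mt-Nd3. It was 62.2% for mt-Nd4 and 51.1% for mt-Co1, which lie at the ends of the block. For mt-Co1 the block's Gm29216 covers 492 bases, 486 of them identical, and Gm13340 on chromosome 2 matches its whole length, with 1508 of 1545 bases identical. It was 8.19% for mt-Nd2, 7.61% for mt-Nd5, 1.04% for mt-Rnr2 and 0 for mt-Nd1, mt-Nd6, mt-Cytb and mt-Rnr1. The exception was mt-Atp8, with 2 counts and a share of 0: none of the annotated nuclear transcripts held a whole window of it. This gene overlaps mt-Atp6 by 43 bases and otherwise lies between mt-Co2 and mt-Atp6. The distance from the matched part of mt-Co2 to that of mt-Atp6 was 233 bases on mitochondrial DNA and in the block. The sequence between them in the block was not compared. Whether the counts of mt-Co1 and mt-Nd4 came from the unmatched part of these genes was not tested. Every sum over protein-coding members below rests on the 7 measured genes.

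**Figure D1:**
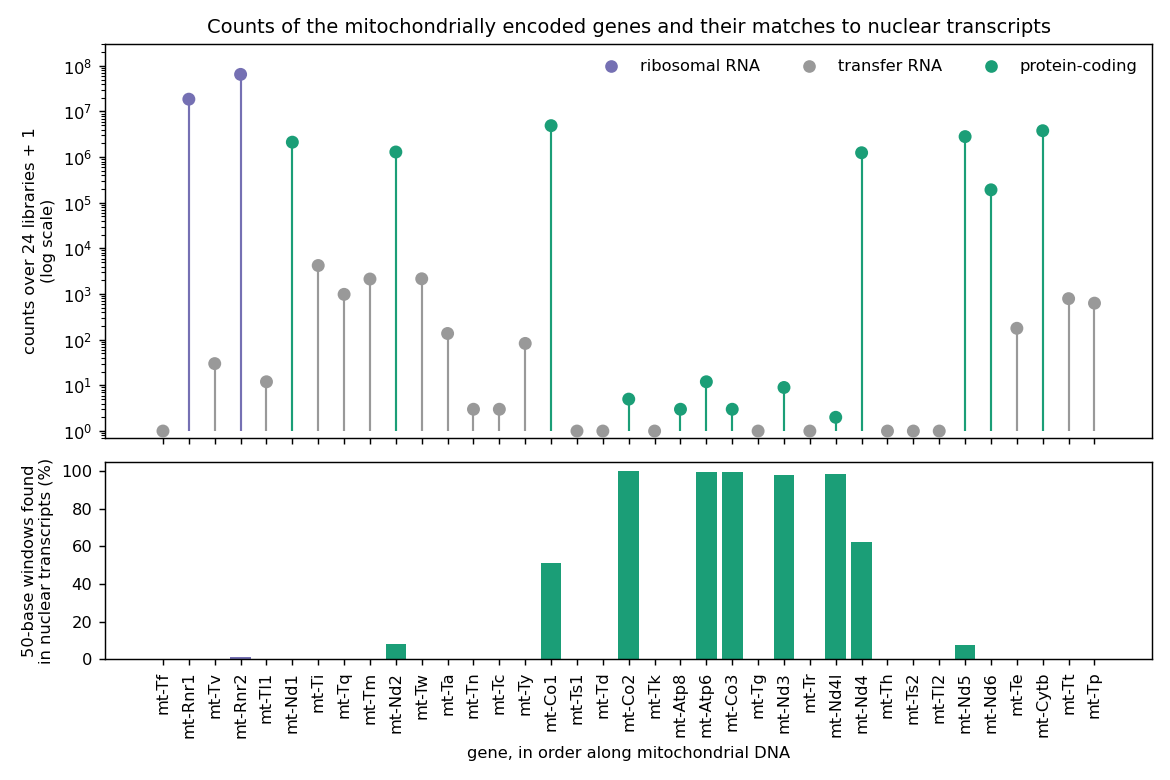
Upper panel: counts of each of the 37 genes summed over 24 libraries, plus 1, on a log scale, in order along mitochondrial DNA and coloured by class. Lower panel: percentage of each gene's 50-base windows found in nuclear transcripts; the protein-coding genes with 98.0% or more lie in the run with at most 11 counts.

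Most transfer RNA genes were also close to 0. Of the 22, 9 had no count in any library and 4 others had at most 3 counts in any library. The whole class held 11361 counts, 0.0114% of the mitochondrial counts. The 2 ribosomal RNA genes, counted after depletion of ribosomal RNA, held 83.6% and the protein-coding genes 16.4%. The 7 transfer RNA genes that passed edgeR's filter on low counts were mt-Ti (isoleucine), mt-Tq (glutamine), mt-Tm (methionine), mt-Tw (tryptophan), mt-Te (glutamate), mt-Tt (threonine) and mt-Tp (proline), whereas mt-Ta with 136 counts in all and mt-Ty with 82 did not. Together with the 2 ribosomal RNA genes and 7 protein-coding genes, 16 of the 37 members were tested. The whole genes are shown for the transfer RNAs whose values are described below, with the anticodon in capitals. They lie on chromosome MT at 3706 to 3774 (mt-Ti, plus strand), 3772 to 3842 (mt-Tq, minus strand), 3845 to 3913 (mt-Tm, plus strand), 4950 to 5016 (mt-Tw, plus strand), 15289 to 15355 (mt-Tt, plus strand) and 15356 to 15422 (mt-Tp, minus strand).
mt-Ti: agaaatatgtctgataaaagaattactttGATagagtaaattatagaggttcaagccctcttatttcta
mt-Tq: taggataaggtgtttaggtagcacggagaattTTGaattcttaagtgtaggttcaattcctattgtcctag
mt-Tm: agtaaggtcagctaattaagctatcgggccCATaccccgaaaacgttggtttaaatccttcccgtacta
mt-Tw: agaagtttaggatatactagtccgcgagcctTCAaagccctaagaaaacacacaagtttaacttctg
mt-Tt: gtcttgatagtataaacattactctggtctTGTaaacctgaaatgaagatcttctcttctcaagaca
mt-Tp: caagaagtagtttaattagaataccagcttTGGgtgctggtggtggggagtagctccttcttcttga

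Some of these genes share bases with a neighbour. The annotation overlaps mt-Nd1 and mt-Ti by 2 bases and mt-Nd2 and mt-Tw by 2 bases on the same strand, and mt-Ti and mt-Tq by 3 bases and mt-Nd5 and mt-Nd6 by 14 bases on opposite strands. The strand setting of the counting is not given in the sources used here. For mt-Nd6, mt-Tq, mt-Te and mt-Tp, which lie on the minus strand, reads of the opposite strand therefore cannot be told apart. Whether transfer RNA counts came from free transfer RNA or from uncut RNA was not tested.

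Among the measured genes the levels spanned a wide range when given per length. Those of the ribosomal RNAs are what was left after depletion, whose effect on them was not tested. In non-diabetic vehicle libraries, on the scale of CPM (counts scaled to the library total in the usual way) per kilobase of gene, mt-Rnr2, the large ribosomal RNA, stood at 92815 ± 4201 and mt-Rnr1, the small one, at 43247 ± 10061 (SD, n = 6). The protein-coding genes followed at 7808 ± 1334 for mt-Cytb, 7376 ± 378 for mt-Co1 and 5001 ± 601 for mt-Nd1. Next came mt-Nd5 at 3489 ± 514, mt-Nd2 at 2755 ± 705 and mt-Nd4 at 2176 ± 555, and mt-Nd6, the only protein-coding member on the minus strand, was lowest at 754 ± 130. All genes were measured in the same libraries, so these spreads do not show whether neighbours in this order stood apart, which was not tested. With all counts of a gene divided by only its kilobases outside the nuclear matches, the order changed, with mt-Co1 at 29370 ± 1505 and mt-Nd4 at 5972 ± 1523. This scale holds only if no counts came from the matched bases, which was not tested.

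Library totals ran from 10964992 to 22000895 counts, and the tested transfer RNAs had 2 to 275 counts per library. Proximal tubule markers (Slc34a1, Lrp2, Slc5a2, Slc5a12, Slc22a6 and Slc13a3, 6 of 6 present) had the highest sum of the cell type lists in every group and markers of adipocytes and skeletal muscle were at or near 0. The summed level of the proximal tubule markers ran from 9809 to 14148 CPM in diabetic PMX-53 libraries, from 7991 to 10047 in diabetic vehicle libraries, from 13149 to 14701 in non-diabetic PMX-53 libraries and from 12755 to 14651 in non-diabetic vehicle libraries. In bulk RNA, fewer cells of a type and less RNA per cell cannot be told apart. The diabetic vehicle libraries also stood apart at Nnt, a nuclear gene for a transhydrogenase of the inner mitochondrial membrane, with 242 to 272 normalized CPM against 101 to 121 in all the other libraries. Some other trait of these mice or libraries therefore cannot be told apart from diabetes on vehicle, and both main comparisons below use them.

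Mitochondrial RNA took a larger share of the counts in diabetic vehicle libraries than in any non-diabetic vehicle library. The share of all counts, as lowest, median and highest library, was 22.2%, 25.5% and 29.0% in diabetic mice on PMX-53 and 25.9%, 30.1% and 31.9% in diabetic mice on vehicle. It was 20.2%, 23.1% and 24.6% in non-diabetic mice on PMX-53 and 20.1%, 22.4% and 24.6% in non-diabetic mice on vehicle. Thus the 2 vehicle groups did not overlap, 4 of 6 diabetic PMX-53 libraries lay below every diabetic vehicle library and 4 of 6 lay above every non-diabetic PMX-53 library, and the 2 non-diabetic groups covered almost the same range.

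Each class took a larger mean share in diabetic than in non-diabetic vehicle libraries. Mitochondrial ribosomal RNA took 24.8% ± 2.15 of all counts in diabetic vehicle libraries and 18.8% ± 1.33 in non-diabetic vehicle libraries, 1.32 times as much. The protein-coding members took 4.69% ± 0.297 in diabetic vehicle libraries and 3.77% ± 0.413 in non-diabetic vehicle libraries, 1.24 times as much. The transfer RNAs took 0.00357% ± 0.00101 and 0.00261% ± 0.000392 in the same order, 1.37 times as much (SD, n = 6 each). The ranges of the groups did not overlap for ribosomal RNA. For the protein-coding members and for the transfer RNAs they overlapped, with 5 of 6 diabetic vehicle libraries above every non-diabetic vehicle library. Ribosomal RNA accordingly made up 84.1% ± 1.39 of the mitochondrial counts in diabetic PMX-53 libraries, 84.0% ± 1.63 in diabetic vehicle libraries, 83.1% ± 0.952 in non-diabetic PMX-53 libraries and 83.3% ± 1.08 in non-diabetic vehicle libraries. Shares are descriptions and were not tested, and those of ribosomal RNA are of what depletion left.

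Set against nuclear messenger RNAs, the protein-coding members again had their highest mean in diabetic vehicle libraries. The ranges overlapped those of non-diabetic vehicle and of diabetic PMX-53 libraries. Of 6 diabetic vehicle libraries 5 lay above every non-diabetic vehicle library, and 4 of 6 diabetic PMX-53 libraries lay below every diabetic vehicle library. Per 100 counts of nuclear protein-coding genes, the protein-coding members held 6.48 ± 1.09 counts in diabetic PMX-53 libraries, 7.98 ± 0.672 in diabetic vehicle libraries, 5.96 ± 0.821 in non-diabetic PMX-53 libraries and 5.80 ± 0.997 in non-diabetic vehicle libraries. Cytosolic ribosomal RNA left after depletion did not follow the groups, with 3.25%, 3.32%, 3.40% and 3.40% of counts in the same order of groups. The gene model Gm23935 took 1.12% to 6.71% of counts in single libraries, and its ranges overlapped between all groups.

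**Figure D2:**
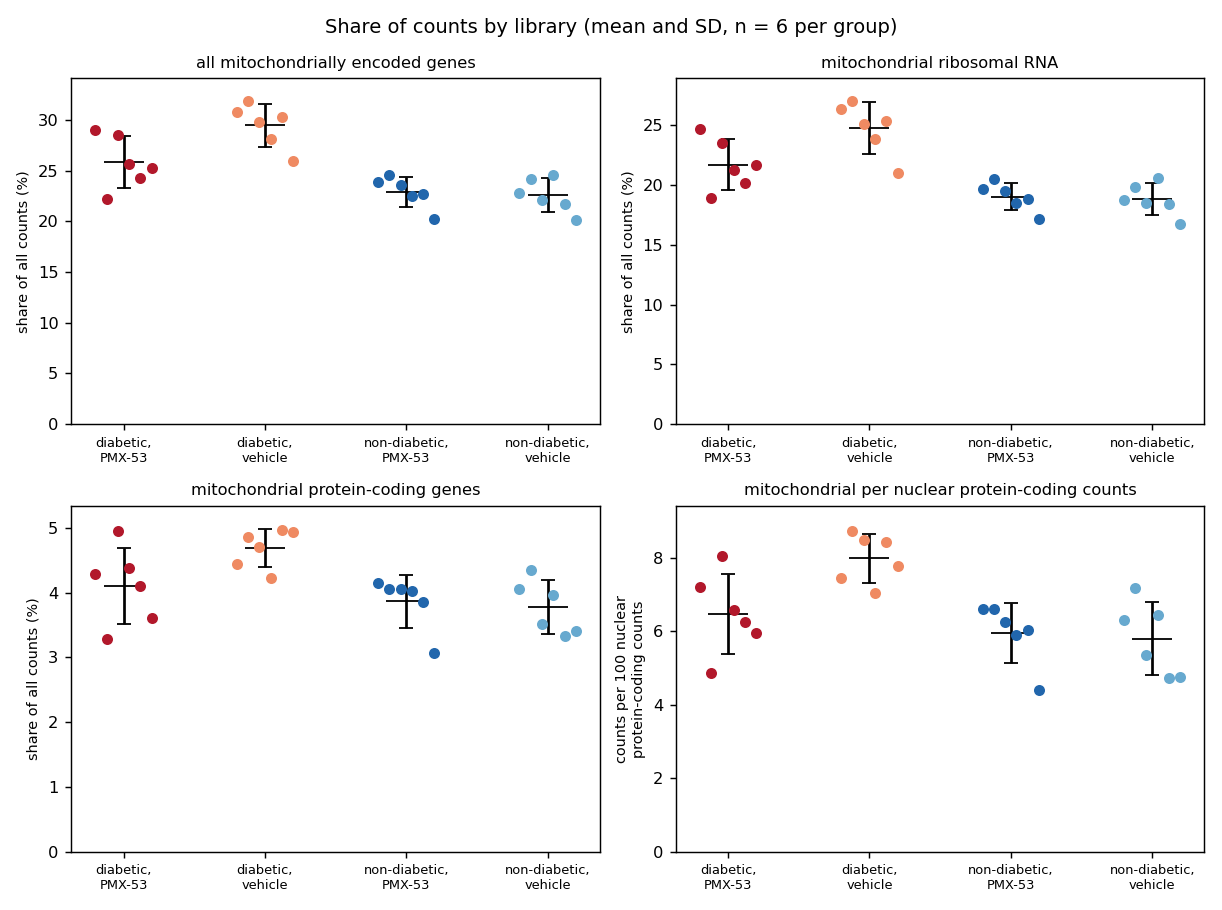
Points are single libraries of 4 groups, with the mean and SD (n = 6 each). Panels give the percentage of all counts in all members, in mitochondrial ribosomal RNA and in the protein-coding members, and the counts of protein-coding members per 100 nuclear protein-coding counts; the diabetic vehicle libraries run from 25.9% to 31.9% of all counts and lie above all non-diabetic vehicle libraries.

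In diabetic against non-diabetic mice on vehicle, 10 of the 16 tested members were higher and 0 were lower. Across all 15808 genes tested, 40.3% were called, 20.4% higher and 19.9% lower, by edgeR's quasi-likelihood test with Benjamini-Hochberg adjustment at 0.05. The 10 were both ribosomal RNAs, 5 of the 7 protein-coding genes and 3 of the 7 transfer RNAs. The median log2 fold change of the 16 was 0.52, against -0.0014 for all genes tested. With library totals in place of TMM scaling factors the median of all genes shifted to -0.09. Without the diabetic vehicle libraries 1 and 2, which were the highest of their group for 7 of the 16 members, 7 members were called higher, 6 of the 10 and mt-Tm (log2 fold change 0.64, adjusted p = 0.0423). That fit, added after the data were seen, called 4989 of 16068 genes, against 6363 of 15808 in the main fit.

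The ribosomal RNAs, as counted after depletion, rose by 1.4 to 1.5 times. Whether depletion acted on them alike in all libraries was not tested. Normalized CPM of mt-Rnr2 (lowest, median and highest) were 157561, 207154 and 231247 in diabetic vehicle libraries and 124700, 145740 and 163748 in non-diabetic vehicle libraries, a log2 fold change of 0.47 ± 0.11 (SE, adjusted p = 8.41e-04). For mt-Rnr1 they were 47579, 59928 and 73420 in diabetic vehicle libraries and 26508, 42208 and 57631 in non-diabetic vehicle libraries, a log2 fold change of 0.55 ± 0.18 (SE, adjusted p = 0.0167). All 6 diabetic vehicle libraries lay above the non-diabetic mean for both genes, and the ranges of the groups overlapped. Without diabetic vehicle libraries 1 and 2 the adjusted p was 0.0108 for mt-Rnr2 and 0.0502 for mt-Rnr1.

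Of the protein-coding genes, mt-Co1, the catalytic core subunit of complex IV, was the only member whose groups did not overlap; higher without overlap were 7.86% of all genes tested, and lower without overlap 7.02%. It had 13414, 14875 and 15811 normalized CPM in diabetic vehicle libraries and 10528, 11311 and 12247 in non-diabetic vehicle libraries, a log2 fold change of 0.39 ± 0.08 (SE, adjusted p = 5.17e-04). The largest change among protein-coding members was that of mt-Nd6, with 454, 560 and 907 normalized CPM in diabetic vehicle libraries and 348, 364 and 456 in non-diabetic vehicle libraries. Its log2 fold change was 0.71 ± 0.15 (SE, adjusted p = 6.27e-04), and 0.46 without diabetic vehicle libraries 1 and 2 (adjusted p = 0.00823), which held 764 and 907. All 6 diabetic vehicle libraries lay above the non-diabetic mean of each of these genes.

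The remaining complex I genes and mt-Cytb overlapped more between the groups. mt-Nd1 had 5449, 6742 and 7654 normalized CPM in diabetic vehicle libraries and 3802, 4799 and 6034 in non-diabetic vehicle libraries, and rose by 0.48 ± 0.14 on the log2 scale (SE, adjusted p = 0.00668). mt-Nd5 had 7740, 8650 and 9570 in diabetic vehicle libraries and 4641, 6567 and 8119 in non-diabetic vehicle libraries, and rose by 0.45 ± 0.15 (SE, adjusted p = 0.0166). mt-Nd2 had 3465, 4297 and 4853 in diabetic vehicle libraries and 1849, 2885 and 4140 in non-diabetic vehicle libraries, and rose by 0.54 ± 0.20 (SE, adjusted p = 0.0357), a call kept in 5 of 12 fits that left out 1 library and lost without non-diabetic library 3, 5 or 6 or diabetic library 2, 3, 5 or 6 (adjusted p up to 0.0858). For mt-Nd5 and mt-Nd2 the non-diabetic group was the wider one, and in all 3 genes its libraries 5 and 6 were low and its library 2 high.

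mt-Cytb and mt-Nd4 did not pass. Normalized CPM of mt-Cytb were 10105, 11104 and 12417 in diabetic vehicle libraries and 6269, 9013 and 11907 in non-diabetic vehicle libraries, a log2 fold change of 0.31 ± 0.15 (SE, adjusted p = 0.0999). For mt-Nd4 they were 2991, 3563 and 3883 in diabetic vehicle libraries and 1754, 3060 and 4282 in non-diabetic vehicle libraries, a log2 fold change of 0.22 ± 0.19 (SE, adjusted p = 0.387). For mt-Nd4 the non-diabetic vehicle group held both the lowest and the highest library. Whether mt-Nd4 differed from the members that rose was not tested. Within the counts of the 7 genes, mt-Nd4 made up 7.08% ± 0.267 in diabetic vehicle libraries and 7.84% ± 1.23 in non-diabetic vehicle libraries, and mt-Nd2 made up 8.45% ± 0.532 and 7.48% ± 1.13 in the same order (SD, n = 6 each), with overlapping ranges for both.

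**Figure D3:**
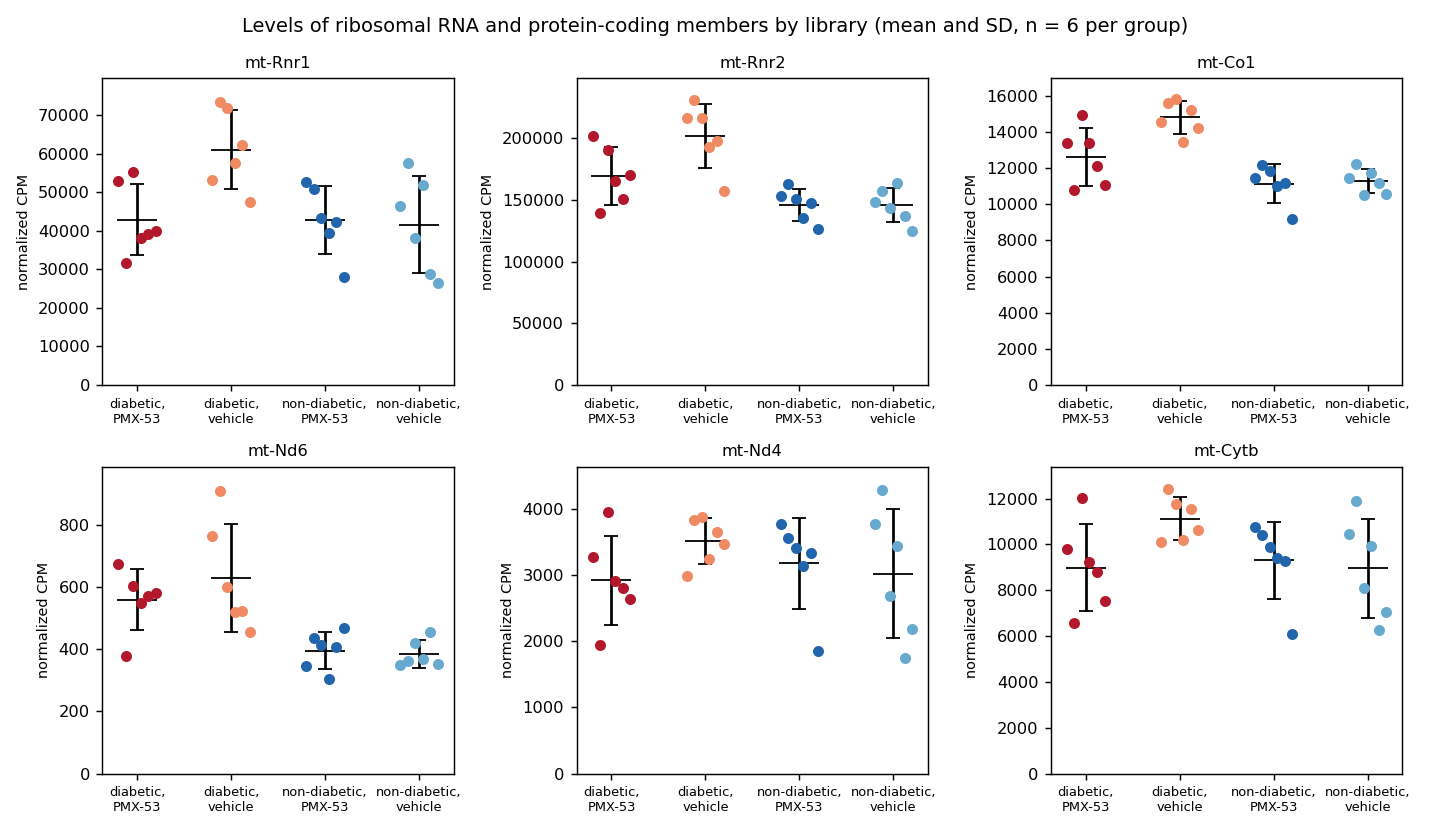
Normalized CPM of 6 members in every library of 4 groups, with the mean and SD (n = 6 each). For mt-Co1 every diabetic vehicle library (13414 or more) lies above every non-diabetic vehicle library (12247 or less), while for mt-Nd4 the non-diabetic vehicle libraries spread from 1754 to 4282.

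Among the transfer RNAs, mt-Tw, mt-Tt and mt-Tp rose, each about 2 to 2.7 times, on few counts. mt-Tw, which lies just behind mt-Nd2, had 3.00, 8.29 and 16.2 normalized CPM in diabetic vehicle libraries and 1.01, 4.15 and 5.27 in non-diabetic vehicle libraries, a log2 fold change of 1.44 ± 0.38 (SE, adjusted p = 0.00431). mt-Tt, behind mt-Cytb, had 1.02, 3.04 and 6.52 in diabetic vehicle libraries and 0.581, 1.30 and 2.41 in non-diabetic vehicle libraries, a log2 fold change of 1.42 ± 0.35 (SE, adjusted p = 0.00221). mt-Tp, the last gene before the control region and on the other strand, had 1.21, 2.34 and 5.15 in diabetic vehicle libraries and 0.726, 1.30 and 1.91 in non-diabetic vehicle libraries, a log2 fold change of 1.00 ± 0.29 (SE, adjusted p = 0.00809).

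These 3 changes rested in large part on a pair of libraries. Diabetic vehicle libraries 1 and 2 held the highest values of mt-Tw (16.2 and 14.8), mt-Tt (6.52 and 5.60) and mt-Tp (5.15 and 3.82), and library 4 held the lowest. Without libraries 1 and 2 the log2 fold changes were 0.96 for mt-Tw (adjusted p = 0.0596), 0.88 for mt-Tt (adjusted p = 0.0405) and 0.45 for mt-Tp (adjusted p = 0.191). The same pair was highest for mt-Nd6, mt-Te, mt-Tq and mt-Rnr2, so that the 7 members it led included all 4 tested members of the minus strand.

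The other 4 transfer RNAs did not pass the test. mt-Ti was the only member with a negative log2 fold change, -0.28 ± 0.16 (SE, adjusted p = 0.18), with 7.50, 8.59 and 13.6 normalized CPM in diabetic vehicle libraries and 8.53, 12.0 and 15.0 in non-diabetic vehicle libraries. With library totals in place of scaling factors, mt-Ti was called lower, at -0.36 (adjusted p = 0.0416). mt-Tm had a log2 fold change of 0.49 ± 0.22 (SE, adjusted p = 0.0765), mt-Tq of 0.66 ± 0.32 (adjusted p = 0.106) and mt-Te of 0.95 ± 0.45 (adjusted p = 0.0982).

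**Figure D4:**
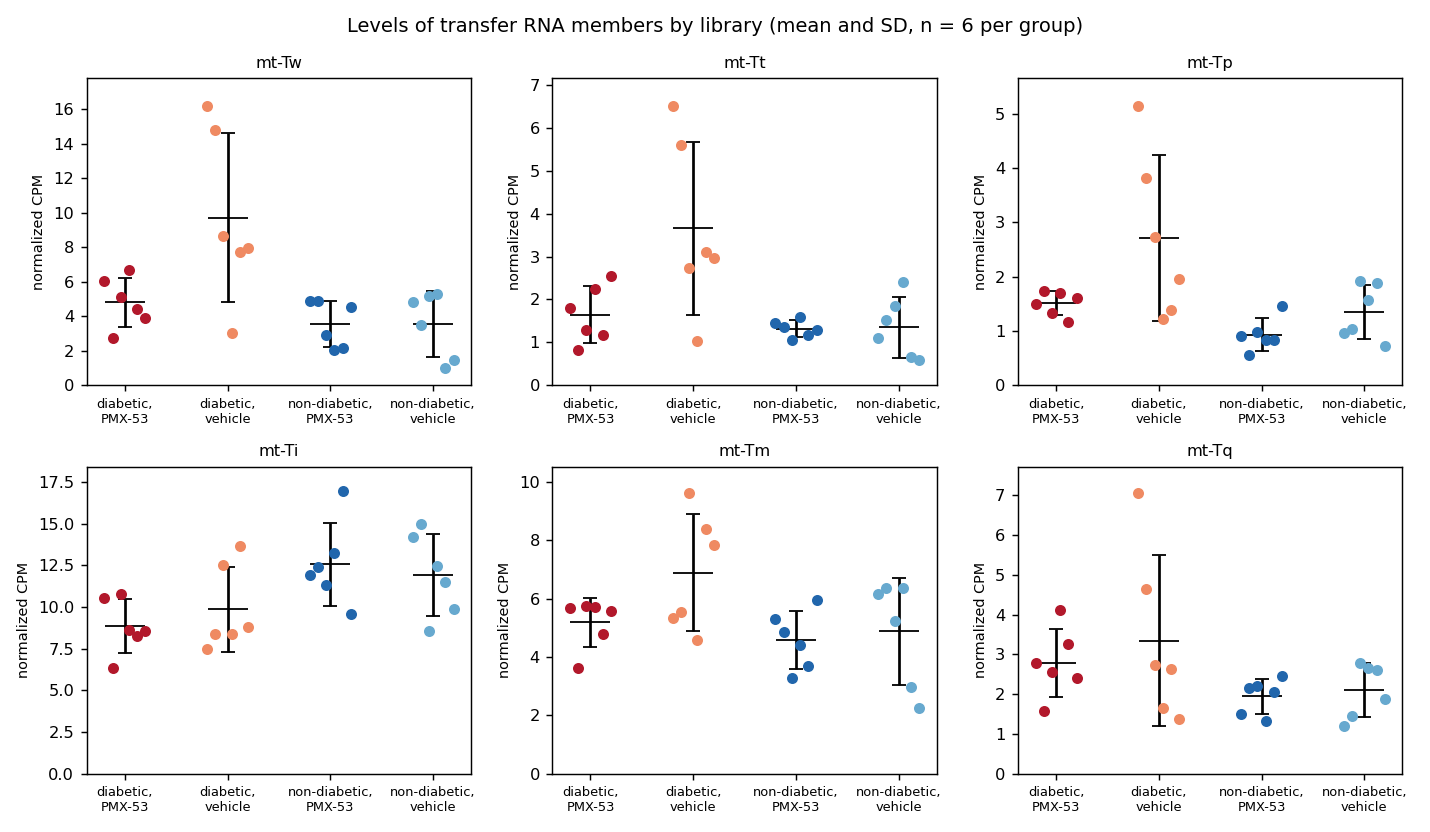
Normalized CPM of 6 transfer RNA genes in every library of 4 groups, with the mean and SD (n = 6 each). Diabetic vehicle libraries of mt-Tw run from 3.00 to 16.2, and mt-Ti lies between 6.35 and 17.0 over all libraries.

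A list of short noncoding RNAs of nuclear genes was chosen after their values were seen, so its counts are descriptions. Of 6 tested (Rn7sk, Rn7s1, Rn7s2, Rmrp, Rpph1, Rny1 and Rny3, of which Rn7s1 was not tested), 2 were higher in diabetic than in non-diabetic vehicle libraries and 0 were lower, against 20.4% and 19.9% of all genes; the median of their log2 fold changes was 0.55. The 2 were Rpph1, the RNA of nuclear RNase P, at 0.71 ± 0.10 (SE, adjusted p = 2.91e-06), and Rmrp, the RNA of RNase MRP, at 0.53 ± 0.14 (SE, adjusted p = 0.00284). Rn7sk, a regulator of transcription elongation, did not pass at 0.52 ± 0.22 (SE, adjusted p = 0.0615), nor did Rn7s2 at 0.04 ± 0.36. Of the cell type lists, 4 had sums that did not overlap between these groups. Proximal tubule markers were lower in diabetic vehicle libraries, as given above, as were those of endothelium (109 to 135 CPM in diabetic vehicle libraries and 155 to 192 in non-diabetic vehicle libraries) and leukocytes (29.9 to 54.9 in diabetic vehicle libraries and 56.7 to 86.7 in non-diabetic vehicle libraries). Principal cell markers were higher, at 146 to 241 CPM in diabetic vehicle libraries and 77.1 to 109 in non-diabetic vehicle libraries. The part of RNA quality and of cell makeup in the result was not tested.

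In diabetic mice, PMX-53 against vehicle, 5 of the 16 members were lower and 0 were higher. Across all genes tested, 27.3% were called, 13.9% higher and 13.5% lower. The 5 were mt-Rnr1, mt-Co1, mt-Tw, mt-Tt and mt-Tp, each of which was higher in diabetic vehicle libraries above; the 2 comparisons share those libraries and are not independent. All 16 log2 fold changes were negative, with a median of -0.32 against 0.0033 for all genes. Diabetic vehicle libraries 1 and 2 were left out together after the data were seen. They were the highest of their group for 7 of the 16 members (mt-Nd6, mt-Tq, mt-Te, mt-Tw, mt-Tt, mt-Tp and mt-Rnr2). For these members a weaker effect without them was thus built in. Without both, 0 of the 16 were called by edgeR. Of all genes that fit called 2746 of 16068, against 4317 of 15808 in the main fit. The log2 fold changes of mt-Nd6, mt-Tq and mt-Te were then above 0. For the 5 called members the adjusted p was then 0.106 (mt-Rnr1), 0.111 (mt-Co1), 0.202 (mt-Tt), 0.383 (mt-Tw) and 0.481 (mt-Tp). Leaving out 1 library left 1 call without diabetic PMX-53 library 5 or diabetic vehicle library 2, and 2 calls without diabetic PMX-53 library 2 or 6 or diabetic vehicle library 1 or 3. The ranges of the groups overlapped for all 16, whereas 3.92% of all genes were higher and 4.29% lower without overlap.

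mt-Rnr1 had 31787, 39617 and 55350 normalized CPM in diabetic PMX-53 libraries and 47579, 59928 and 73420 in diabetic vehicle libraries, a log2 fold change of -0.51 ± 0.18 (SE, adjusted p = 0.0383). mt-Co1 had 10762, 12725 and 14934 in diabetic PMX-53 libraries and 13414, 14875 and 15811 in diabetic vehicle libraries, a log2 fold change of -0.23 ± 0.08 (SE, adjusted p = 0.0399). Leaving out 1 library at a time kept each call in 5 of 12 fits. mt-Rnr2, with 139376, 167731 and 201922 in diabetic PMX-53 libraries and 157561, 207154 and 231247 in diabetic vehicle libraries, did not pass (log2 fold change -0.25 ± 0.11, SE, adjusted p = 0.0771).

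The transfer RNAs spanned the largest and the smallest differences. mt-Tt had 0.825, 1.54 and 2.56 normalized CPM in diabetic PMX-53 libraries and 1.02, 3.04 and 6.52 in diabetic vehicle libraries, a log2 fold change of -1.15 ± 0.34 (SE, adjusted p = 0.0139), a call kept in 12 of 12 fits without 1 library. mt-Tw had 2.72, 4.76 and 6.65 in diabetic PMX-53 libraries and 3.00, 8.29 and 16.2 in diabetic vehicle libraries, a log2 fold change of -0.99 ± 0.36 (SE, adjusted p = 0.0465), kept in 3 of 12. mt-Tp had 1.17, 1.54 and 1.73 in diabetic PMX-53 libraries and 1.21, 2.34 and 5.15 in diabetic vehicle libraries, a log2 fold change of -0.84 ± 0.29 (SE, adjusted p = 0.0316), kept in 7 of 12. For all 3 genes every diabetic PMX-53 library lay below the diabetic vehicle mean. The other 4 did not pass, with log2 fold changes of -0.15 ± 0.17 for mt-Ti (adjusted p = 0.549), -0.41 ± 0.22 for mt-Tm (adjusted p = 0.169), -0.23 ± 0.31 for mt-Tq (adjusted p = 0.63) and -0.23 ± 0.41 for mt-Te (adjusted p = 0.718).

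The other protein-coding members did not pass in this comparison. Their log2 fold changes were -0.52 ± 0.20 for mt-Nd2 (adjusted p = 0.0623), -0.35 ± 0.14 for mt-Nd1 (adjusted p = 0.0579) and -0.33 ± 0.15 for mt-Nd5 (adjusted p = 0.0978). They were -0.31 ± 0.15 for mt-Cytb (adjusted p = 0.134), -0.27 ± 0.19 for mt-Nd4 (adjusted p = 0.325) and -0.17 ± 0.15 for mt-Nd6 (adjusted p = 0.435). Diabetic PMX-53 library 2 was the lowest of its group for all 9 abundant members and library 3 was the highest for 7. The short RNAs of nuclear genes were chosen after their values were seen. Of these, 4 of 6 were lower (Rn7sk, Rny1, Rmrp and Rpph1) and 0 were higher, against 13.5% and 13.9% of all genes tested. Rn7sk stood at -0.65 ± 0.22 on the log2 scale (SE, adjusted p = 0.0288). Without diabetic vehicle libraries 1 and 2, Rmrp and Rpph1 still passed, and Rn7sk (adjusted p = 0.0751) and Rny1 (adjusted p = 0.067) did not. Marker sums did not overlap for podocytes (189 to 297 CPM in diabetic PMX-53 libraries and 132 to 169 in diabetic vehicle libraries), endothelium (141 to 195 in diabetic PMX-53 libraries and 109 to 135 in diabetic vehicle libraries) and red blood cells (364 to 551 in diabetic PMX-53 libraries and 106 to 333 in diabetic vehicle libraries). The part of these RNAs and cells in the result was not tested.

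In non-diabetic mice, PMX-53 against vehicle, 0 of the 16 members were called by edgeR, as were 0 of the 15808 genes, and 0 members had an unadjusted p under 0.05, against 7.22% of all genes. DESeq2 called 0 of the 12 members to which it gave an adjusted p. For the ribosomal and protein-coding members the log2 fold changes lay between -0.02 and 0.07. mt-Co1, for example, had 9163, 11311 and 12187 normalized CPM in non-diabetic PMX-53 libraries and 10528, 11311 and 12247 in non-diabetic vehicle libraries, a log2 fold change of -0.02 ± 0.08 (SE). mt-Tp was the farthest from 0, at -0.52 ± 0.34 (SE, adjusted p = 0.805).

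On PMX-53, 1 of the 16 members was called higher in diabetic than in non-diabetic mice and 0 were lower. Of all genes 10.0% were called, 5.52% higher and 4.52% lower. This was mt-Nd6, with 379, 575 and 672 normalized CPM in diabetic PMX-53 libraries and 303, 410 and 466 in non-diabetic PMX-53 libraries, a log2 fold change of 0.50 ± 0.15 (SE, adjusted p = 0.0353). The diabetic library 2 fell inside the non-diabetic range and the other 5 lay above it, and the call was kept in 3 of 12 fits without 1 library (non-diabetic library 2 or 6, or diabetic library 2). For 0 of 16 members the groups were apart, whereas 2.97% of all genes were higher and 3.03% lower without overlap. mt-Rnr1 and mt-Nd2 had log2 fold changes of 0.003 ± 0.18 and -0.03 ± 0.20 (SE).

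mt-Ti lay lower here too, at 6.35, 8.60 and 10.8 normalized CPM in diabetic PMX-53 libraries and 9.58, 12.2 and 17.0 in non-diabetic PMX-53 libraries, a log2 fold change of -0.49 ± 0.16 (SE, adjusted p = 0.0567) that just missed the threshold. With DESeq2 the adjusted p was 0.0283. mt-Ti adjoins mt-Nd1, and per 1000 counts of mt-Nd1 it had 1.56, 1.71 and 1.91 counts in diabetic PMX-53 libraries and 1.10, 1.42 and 2.02 in diabetic vehicle libraries. It had 2.198, 2.51 and 3.47 in non-diabetic PMX-53 libraries and 1.96, 2.54 and 3.02 in non-diabetic vehicle libraries. On this scale the diabetic and non-diabetic groups did not overlap on PMX-53 and overlapped by 1.96 to 2.02 on vehicle. Ratios were computed for 6 pairs of a transfer RNA and a protein-coding gene of the same strand, of which mt-Tp and mt-Nd6 do not adjoin. The other 5 pairs overlapped between diabetic and non-diabetic libraries both on PMX-53 and on vehicle. The pair of mt-Ti and mt-Nd1 was chosen after its values were seen, and the ratio was not tested.

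**Figure D5:**
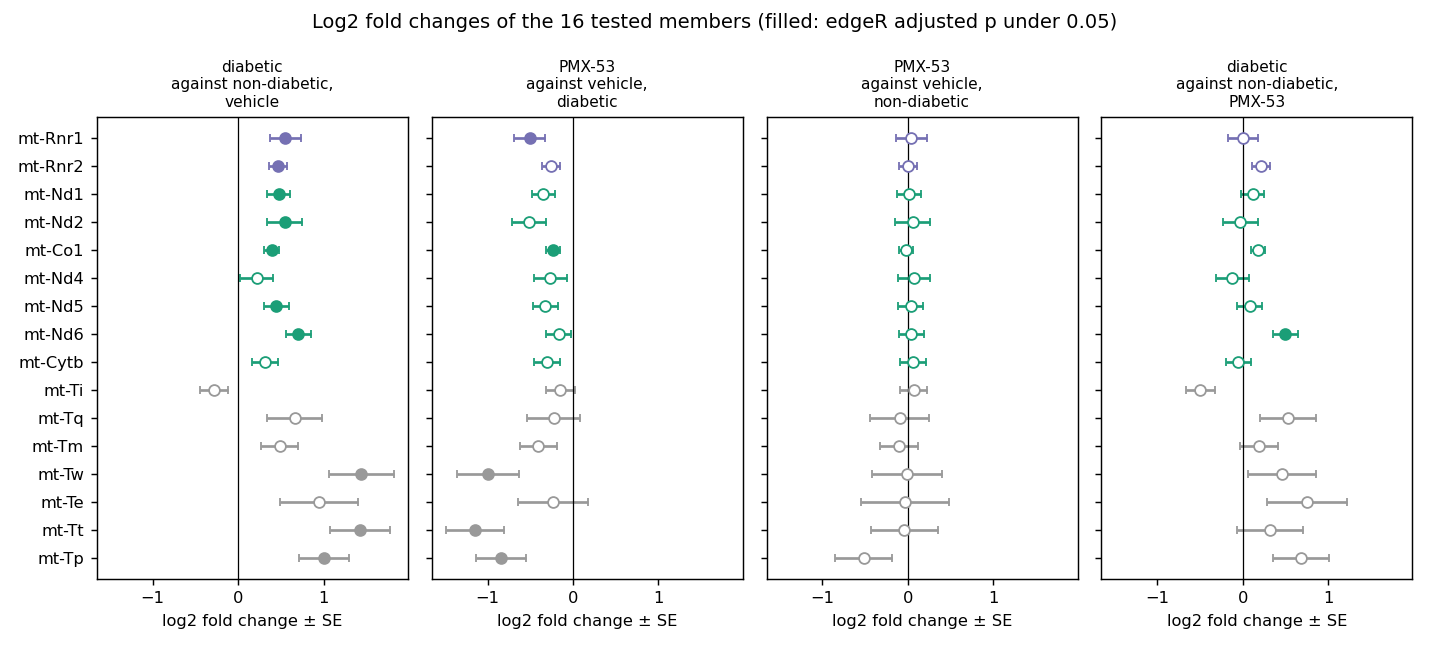
Log2 fold changes (points) with their standard errors (bars) for the 16 tested members in 4 comparisons, 6 libraries per group; filled points passed edgeR's adjusted p of 0.05. Filled points number 10, 5, 0 and 1 from left to right, and mt-Ti lies left of 0 in both comparisons of diabetic with non-diabetic mice.

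The effect of PMX-53 was not shown to differ between diabetic and non-diabetic mice for any member. The interaction, the effect in diabetic mice minus that in non-diabetic mice, passed for 0 of 16 members by edgeR and 0 by DESeq2, whereas 9.42% of all genes passed by edgeR, 4.66% above 0 and 4.76% below. All 16 estimates were negative, with a median of -0.33, and 2 had an unadjusted p under 0.05, against 24.0% of all genes: mt-Rnr1 at -0.55 ± 0.26 (SE, adjusted p = 0.186) and mt-Tt at -1.11 ± 0.52 (SE, adjusted p = 0.194). Without diabetic vehicle libraries 1 and 2, 0 passed and the estimates of mt-Tq, mt-Te, mt-Nd6 and mt-Tp were above 0. These 2 libraries were the highest of their group for each of those members, so a shift upward was built in. That fit called 730 of 16068 genes, against 1489 of 15808 in the main fit.

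Ratios between members of the same library, which do not depend on scaling, were tested for 3 pairs in 4 comparisons by exact two-sided permutation of 924 arrangements. The ratio of mt-Rnr1 to mt-Rnr2, the small to the large ribosomal RNA, was 0.251 ± 0.0243 in diabetic PMX-53 libraries and 0.302 ± 0.0298 in diabetic vehicle libraries (SD, n = 6 each, difference in mean log2 ratio -0.26, exact permutation p = 0.0173, 0.208 after adjustment over 12 tests). It was 0.291 ± 0.0406 in non-diabetic PMX-53 libraries and 0.281 ± 0.0628 in non-diabetic vehicle libraries. Both RNAs were counted after depletion of ribosomal RNA, whose part in this ratio was not tested. The ratio of mt-Nd6 to mt-Nd5, which overlap on opposite strands, was 0.0818 ± 0.00989 in diabetic PMX-53 libraries and 0.0633 ± 0.0213 in non-diabetic PMX-53 libraries (exact permutation p = 0.0541, adjusted p = 0.277). On vehicle it was 0.0725 ± 0.0195 in diabetic libraries and 0.0639 ± 0.0205 in non-diabetic libraries (exact permutation p = 0.411, adjusted p = 0.617). The ratio of mt-Nd1, the first protein-coding gene behind the ribosomal RNAs, to mt-Rnr2 differed by at most 0.11 on the log2 scale in any comparison, and the lowest adjusted p of its 4 exact permutation tests was 0.587.

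Nuclear genes that keep, copy and read mitochondrial DNA, or that process, stabilise or modify RNA, did not move in 1 direction. The list joined 20 genes of replication and maintenance, 9 of transcription, 20 of RNA processing and stability and 17 of ribosomal and transfer RNA modification. Of 66 such genes, all tested, 9 were higher and 9 lower in diabetic than in non-diabetic mice on vehicle; their median was -0.01 on the log2 scale. This was a smaller share than that of all genes, of which 20.4% were higher and 19.9% lower. Lower were Mgme1, a nuclease that trims replicating mitochondrial DNA, at -0.71 ± 0.11 (SE, adjusted p = 1.36e-05), Peo1, its replicative helicase, at -0.43 ± 0.08 (adjusted p = 1.04e-04), Lig3, its ligase, at -0.35 ± 0.06 (adjusted p = 1.08e-04) and Polg, its polymerase, at -0.19 ± 0.04 (adjusted p = 8.50e-04). Higher were Slirp, which binds and stabilises mitochondrial messenger RNAs, at 0.37 ± 0.08 (adjusted p = 5.82e-04), the pyrimidine nucleotide carrier Slc25a33 at 1.03 ± 0.24 (adjusted p = 0.00182), the RNA methyltransferase Nsun2 at 0.23 ± 0.04 (adjusted p = 1.58e-04) and the nuclease Endog at 0.24 ± 0.06 (adjusted p = 0.00227).

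In diabetic mice, PMX-53 against vehicle, 6 of the 66 were higher and 5 lower, against 13.9% and 13.5% of all genes. Slirp had 14.1, 20.8 and 22.1 normalized CPM in diabetic PMX-53 libraries and 22.2, 25.2 and 27.2 in diabetic vehicle libraries, with no overlap, and a log2 fold change of -0.33 ± 0.08 (SE, adjusted p = 0.00263). Also lower were Slc25a33 at -1.26 ± 0.25 on the log2 scale (adjusted p = 6.81e-04), Hsd17b10, part of mitochondrial RNase P, at -0.17 ± 0.04 (adjusted p = 0.00595) and Primpol, a primase and polymerase, at -0.25 ± 0.08 (adjusted p = 0.0311). Higher were Lig3 at 0.29 ± 0.06 (adjusted p = 0.00135), Mgme1 at 0.45 ± 0.11 (adjusted p = 0.00402), Peo1 at 0.28 ± 0.08 (adjusted p = 0.0102) and Tfb1m, a methyltransferase of the small ribosomal RNA, at 0.50 ± 0.13 (adjusted p = 0.00447). In non-diabetic mice 0 of the 66 were called by edgeR for PMX-53 against vehicle, as were 0 of all 15808 genes tested. Between diabetic and non-diabetic mice on PMX-53, 0 of the 66 were called, against 10.0% of all genes. Without diabetic vehicle libraries 1 and 2, Peo1 did not pass (0.22, adjusted p = 0.0907) and the other 7 named here did. The interaction passed for 3 of 66, against 9.42% of all genes: Lig3 (0.31 ± 0.09, adjusted p = 0.0293) and Polg (0.19 ± 0.06, adjusted p = 0.0494) were above 0, and Slirp (-0.39 ± 0.11, adjusted p = 0.0284) below; without diabetic vehicle libraries 1 and 2 their adjusted p was 0.0807, 0.126 and 0.0636.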

How the data were processed

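The authors deposited raw counts of reads for each gene in 24 libraries, in whole numbers, per the file headers. The submitters' processing notes name bcl2fastq 2.20.0.422, STAR and GRCm38. The annotation, the counting tool, its strand setting and its treatment of multiply aligned reads are not stated there. The table holds 0 entries without a gene name.

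The analysis used edgeR 4.0.16 under R 4.3.3: default expression filter over the 4 groups (15808 genes), TMM scaling, 1 robust quasi-likelihood fit of all 24 libraries with a coefficient per group, and Benjamini-Hochberg adjustment over all genes tested at 0.05. Each SE is the absolute log2 fold change over the square root of F. DESeq2 1.42.0 was an alternative. The fit was tested on simulated data. Matches used GENCODE M21 transcripts in Python 3.11.15.

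Labels give 24 separate samples, so a p-value measures the spread between samples, part of which may be technical; 0 of 60 pairs within groups were identical. The members and lists were chosen with earlier results of these data known. By the rule for named genes all members are accounted for, and of the 66 nuclear genes up to 4 with the smallest p in each direction are named. Nnt is named from earlier results, and the short RNAs of nuclear genes and the ratio of mt-Ti to mt-Nd1 after their values were seen. Replicate numbers did not pair libraries. Alternatives were other scalings, filters, fits on the groups compared, a replicate block, libraries left out and DESeq2.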

Additional observations from a re-analysis of the deposited data

Results flagged for a closer look

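Among 108 groups of 6 values checked, 7 held a library farther from the others than Dixon's 95% critical value, against about 1 in 20 groups by chance. All 7 were in non-diabetic PMX-53 library 6, so they are not separate events. Its normalized CPM were 1907 for mt-Nd2 (2986 to 3580 in the other 5), 1847 for mt-Nd4 (3144 to 3776) and 6099 for mt-Cytb (9296 to 10781). Its protein-coding members took 3.06% of all counts (3.85% to 4.14% in the others) and 4.39 counts per 100 nuclear protein-coding counts (5.89 to 6.61), and members without ribosomal RNA took 3.86% of the counts without ribosomal RNA (4.98% to 5.40%). Its ratio of mt-Nd6 to mt-Nd5 was 0.104, against 0.0444 to 0.0621 in the others. No explanation was tested.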

How the results depend on the processing

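In diabetic against non-diabetic mice on vehicle, where 10 members were called, fits without 1 library called 9 to 13, and other settings called 7 to 11. For PMX-53 against vehicle in diabetic mice the count of 5 became 2 with library totals, 3 without a filter on low counts, 3 with only the groups compared, 8 with DESeq2, 1 to 7 without 1 library and 0 without diabetic vehicle libraries 1 and 2, an alternative added after the data were seen. With library totals the median of all genes shifted to 0.12 in that comparison. Between diabetic and non-diabetic mice on PMX-53 the count of 1 became 2 with library totals, 0 without a filter, 0 with the replicate block, 3 with only the groups compared, 2 with DESeq2 and 0 to 2 without 1 library. The replicate block gave 10, 4 and 0 calls in the 3 comparisons with calls; libraries of the same number correlated by -0.124 to 0.131 (median 0.0103), and 0 of them correlated best with their own number.

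In diabetic mice, the log2 effect of PMX-53 turned its sign for mt-Tq without diabetic vehicle library 1 and for mt-Te without library 2; without 1 library they ran from -0.4034 to 0.1176 and from -0.4248 to 0.0793. Without both libraries it turned for mt-Tq (0.4298), mt-Nd6 (0.0835) and mt-Te (0.4623). Without 1 library the differences in log2 ratio that crossed 0 ran, for PMX-53 in non-diabetic mice, from -0.00971 to 0.151 for mt-Rnr1 to mt-Rnr2, from -0.0265 to 0.0679 for mt-Nd1 to mt-Rnr2 and from -0.167 to 0.124 for mt-Nd6 to mt-Nd5, which was 0.0335 as a difference in medians. On vehicle, diabetic against non-diabetic, mt-Nd1 to mt-Rnr2 ran from -0.0540 to 0.0781. The cause of these shifts was not tested. Depth limits the transfer RNAs, with 2 to 275 counts per library, and 6 protein-coding genes could not be assessed.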
